A study of Rattus norvegicus with 36 samples.

Results

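The response of rat granulosa cells to follicle-stimulating hormone (FSH) in the presence of 1 µM HPTE, the lowest dose of this methoxychlor metabolite in the series, was read from 6 of 36 arrays. The 3 arrays of cells given FSH with 1 µM HPTE were set against the 3 arrays of cells given 1 µM HPTE alone (basal), and arrays were matched by the number 1 to 3 in their titles. The donors of the cells were immature Sprague Dawley rats, 21 to 27 days old. All groups were plated for 24 h in 5% serum and then kept for 48 h without serum, with androstenedione, which aromatase turns into estrone, at 0.1 µM by the design text (the sample descriptions write M for µM). FSH was given at 3 ng/ml. Cells at 0, 5 and 10 µM HPTE with and without FSH, and cells given 1 mM cAMP at 1 µM HPTE, served as companions, with 3 arrays a group. Methoxychlor is an organochlorine pesticide, and HPTE, formed from it in the body, is a ligand of estrogen receptors. Whether replicates were separate cultures or animals is not given, so p-values measure only the spread between arrays of a group, which may be technical. The fit estimated that spread over all 36 arrays in 12 groups. Standard errors (± SE) and p-values therefore do not give the spread of the 6 compared arrays alone.

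FSH binds a membrane receptor on granulosa cells that raises cAMP and activates protein kinase A, and it drives their differentiation before ovulation. Differentiating cells gain the enzymes that turn cholesterol into progesterone and androgens into estradiol, the receptor for luteinizing hormone, and the inhibin subunits through which the ovary restrains FSH release. They also take apart actin fibres and round up. Kinase A phosphorylates CREB, which binds the cAMP response element (CRE) in promoters.

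Cells given FSH at 1 µM HPTE had far higher transcripts of the estrogen and progesterone enzymes Cyp19a1 (56.8-fold), Cyp11a1 (42.4-fold) and Hsd17b1 (13.0-fold), of the luteinizing hormone receptor Lhcgr (25.7-fold) and of the prolactin receptor Prlr (18.9-fold) than basal cells. Transcripts of the lipid receptor S1pr1 (10.4-fold) and of the smooth muscle actin Acta2 (6.18-fold) were lower. Basal Cyp19a1, Lhcgr and Prlr lay below the array median, so their folds depend on how low values are treated: with 16 added to each intensity before the log they were 35.6-fold, 17.6-fold and 12.5-fold. Over the table, 941 of 31042 probe sets, or 3.03%, passed limma's test at an adjusted p under 0.05. Of these, 433 (1.39%) were higher and 508 (1.64%) lower, and 261 of the rises and 278 of the falls were at least 2-fold. In 912 of the 941 (2.94% of all tested) the 3 FSH arrays did not overlap the 3 basal arrays, as in 3544 probe sets (11.4%) called or not, and 938 differed in the called direction in all 3 numbered pairs. With 1 probe set for each of 14217 genes, 242 genes (1.7%) rose and 324 (2.28%) fell. Of these called genes 551, or 3.88% of all 14217, did so without overlap. With the array number as a block the fit called 2489 probe sets (8.02%), among them all 941, and 636 genes higher (4.47%) and 850 lower (5.98%). Single arrays moved the count of 941: it was 347 (1.12%) without FSH array 1, 1490 (4.8%) without FSH array 2, 486 (1.57%) without FSH array 3 and 578 (1.86%) without basal array 3. With only the 6 arrays of this comparison in the fit it was 3 (0.00966%) without the block and 1818 (5.86%) with it.

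The spread between the 3 pairs was not even. In 860 of the 941 called probe sets the pair numbered 2 had the smallest difference, against 45 for pair 1 and 36 for pair 3. The median called probe set had a difference in pair 2 of 45.7% of the mean of pairs 1 and 3 on the log2 scale, with quartiles of 31.8% and 62.3%, and 30 of 941 were above 100%. The share was 48.8% at the median among rises and 44.0% among falls. FSH array 2 and basal array 2 had the lowest array weights of the 6, at 0.42 and 0.43 against 0.62 to 3.03. The log2 ratio of 3' to 5' Gapdh control probe sets, which rises as RNA degrades, was 1.82, 1.95 and 0.85 in FSH arrays 1 to 3 and 2.12, 2.40 and 1.05 in the basal arrays. Number 2 was the highest and number 3 the lowest in both groups, and FSH was the lower array in each pair. The same order held for the actin control probe sets. Their log2 ratios were 3.41, 3.9 and 2.23 in FSH arrays 1 to 3 and 3.51, 4.14 and 2.27 in the basal arrays. The part of RNA quality in the results was not tested.

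Granulosa markers were present in both groups, among them Foxl2, at 11.11 to 11.43 with FSH and 10.85 to 11.05 in basal cells, and the gap junction gene Gja1, at 13.73 to 13.96 over the 6 arrays. Of 13 measured granulosa markers 6 rose (46.2%, beside 1.7% of all genes) and none fell. With the block 8 rose, beside 4.47% of all genes. The 6 were Cyp19a1, Hsd17b1, Inha, Inhbb, Fst and Nr5a2, genes that FSH is known to act on or that serve steroid and inhibin synthesis. The summed intensity of the 12 markers other than Cyp19a1 was 40300 to 52100 with FSH and 24100 to 26500 in basal cells. The array median was 6.05 to 6.14. The estrogen receptor gene Esr2, also a granulosa marker, was near or below that median at 5.58 to 5.85. The leukocyte gene Ptprc lay at 4.80 to 6.48, the endothelial gene Pecam1 at 5.16 to 6.40 and the epithelial gene Krt19 at 5.54 to 6.12. The macrophage gene Lyz2 was well expressed at 8.46 to 10.40, highest in arrays 1 of both groups. Of 16 leukocyte markers 1 fell, Cd14, by 1.17 ± 0.25 (adjusted p = 0.00594), though not without FSH array 1 (adjusted p = 0.122), and their summed intensity was 1290 to 2830 with FSH and 1290 to 3530 in basal cells. Of 14 theca and stroma markers 1 fell, the contractile gene Acta2, and the summed intensity of the 13 others was 5110 to 5960 with FSH and 5410 to 7030 in basal cells. None of the 13 endothelial, 7 oocyte and 11 epithelial markers passed the test, beside 1.7% higher and 2.28% lower over all genes. In whole cultures, fewer cells of a type and less RNA per cell cannot be told apart, and the part of these cells in the results was not tested. The receptor gene Fshr itself was not analysed here.

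Promoters were searched for the CRE, since it is an element through which cAMP is known to act. Other elements were not searched. The 250 bases before the start of a gene were taken from RefSeq (GRCr8) and searched on both strands for the full CRE, TGACGTCA, and its core, TGACG; a full CRE holds a core on each strand. The full element was in 531 of 33469 windows (1.59%) and in 318 of 11733 measured genes (2.71%). It was in 11 of 200 genes called higher (5.5%) and in 3 of 248 called lower (1.21%), while the core was in 23.5% and 23.8% of them and in 26.7% of the measured genes. Of 77 called genes that were in a list or among the 12 largest changes in each direction, 58 had a window and 4 held a full CRE. These were Areg, Crem and Scg2, which rose, and Lmcd1, which fell. The promoters of 3 of these genes with the full CRE in capitals, and that of the inhibin gene Inha with its core (read on the reverse strand) in capitals, were as follows.
Areg (chr14:17265642-17265891, minus strand): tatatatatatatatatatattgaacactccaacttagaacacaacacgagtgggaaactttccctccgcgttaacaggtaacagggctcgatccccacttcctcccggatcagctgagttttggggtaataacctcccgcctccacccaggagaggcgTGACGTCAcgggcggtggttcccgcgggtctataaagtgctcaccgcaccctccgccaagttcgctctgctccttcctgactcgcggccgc
Crem, 1 of its starts (chr17:58985240-58985489, plus strand): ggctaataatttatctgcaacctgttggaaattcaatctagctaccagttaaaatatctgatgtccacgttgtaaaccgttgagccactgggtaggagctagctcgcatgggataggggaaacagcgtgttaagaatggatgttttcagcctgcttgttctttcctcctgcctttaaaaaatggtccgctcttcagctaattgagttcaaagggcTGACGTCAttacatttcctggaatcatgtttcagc
Scg2 (chr9:88256867-88257116, minus strand): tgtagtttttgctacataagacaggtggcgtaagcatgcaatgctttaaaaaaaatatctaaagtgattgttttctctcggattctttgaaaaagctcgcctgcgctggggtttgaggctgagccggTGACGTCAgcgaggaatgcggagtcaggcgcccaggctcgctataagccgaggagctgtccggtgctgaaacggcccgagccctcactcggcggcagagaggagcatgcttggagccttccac
Inha (chr9:84442859-84443108, plus strand): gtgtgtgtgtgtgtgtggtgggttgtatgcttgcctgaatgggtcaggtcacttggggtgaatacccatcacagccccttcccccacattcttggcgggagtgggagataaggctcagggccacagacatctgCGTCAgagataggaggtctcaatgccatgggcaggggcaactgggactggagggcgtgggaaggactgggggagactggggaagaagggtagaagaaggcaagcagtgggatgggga
Areg and Scg2 hold the element within the bases shown, whereas Inha has no full element. A match is a description of the letters, and binding was not measured.

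Signalling genes downstream of FSH were compared first. Of 23 measured genes of the receptor and cAMP machinery 1 rose and 1 fell (4.35% each, beside 1.7% and 2.28% of all genes). Prkar2b, a regulatory subunit of protein kinase A known as an FSH-induced gene, was at 13.33, 13.02 and 13.41 with FSH against 12.33, 12.37 and 12.71 in basal cells, a rise of 0.78 ± 0.14 (adjusted p = 0.00129). All 3 FSH arrays lay above all basal arrays. The anchoring protein gene Akap12 fell by 1.61 ± 0.46 (adjusted p = 0.0494), and the call was lost without any single array other than FSH array 2 (adjusted p = 0.0876 to 0.33). Of 32 genes of cAMP feedback and CREB targets 5 rose (15.6%, beside 1.7% of all genes) and none fell, and 8 rose with the block (beside 4.47%). The count was 2 without FSH array 1 and 3 without FSH array 3, basal array 1 or basal array 2. With the block 4 genes of the receptor and cAMP machinery fell (beside 5.98% of all genes), the others being Akap1, Akap13 and Crtc3.

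Sik1, a salt-inducible kinase that restrains CREB coactivators, was at 11.55, 9.79 and 10.90 with FSH and at 8.59, 8.25 and 8.67 in basal cells, a rise of 2.24 ± 0.29 (adjusted p = 1.76e-05). Its FSH array 2 was the lowest of the 3 but still above every basal array. Sgk1, a serum- and glucocorticoid-inducible kinase, rose by 1.84 ± 0.24 (adjusted p = 2.25e-05). The cAMP phosphodiesterase gene Pde4d was at 8.59, 6.68 and 8.68 with FSH and 5.54, 6.43 and 5.99 in basal cells, so that pair 2 differed by only 0.25 while pairs 1 and 3 differed by 3.05 and 2.68. Its rise was 1.99 ± 0.45 (adjusted p = 0.00946), and 2.65 without FSH array 2; it was lost without FSH array 1 (adjusted p = 0.123), FSH array 3 (0.106) and basal array 1 (0.0707). Pde4b, a related phosphodiesterase, rose by 1.22 ± 0.28 (adjusted p = 0.00938), but not without FSH array 1 (0.181) or basal array 2 (0.057). Crem, which encodes the inducible repressor of CRE-driven genes, was at 9.61, 7.99 and 8.78 with FSH against 7.41, 7.53 and 7.43, a rise of 1.34 ± 0.35 (adjusted p = 0.0279) that was kept only without FSH array 2; without any other single array the adjusted p was 0.0649 to 0.384. In pair 2 its difference was 25.6% of the mean of the others. Irs2, which passes insulin and IGF signals to PI3 kinase, fell by 0.86 ± 0.24 (adjusted p = 0.0459) with 0.10 in pair 2, and its call too was kept only without FSH array 2 (otherwise 0.079 to 0.545).

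Steroid synthesis genes carried the largest rises. Of 18 measured genes 6 rose (33.3%, beside 1.7% of all genes), and 9 did with the block (beside 4.47%). Without FSH array 2, where 4.8% of all probe sets were called, 10 rose. None fell in these fits, and the median difference was 0.85 beside -0.01 over all genes. Medians of the list were 1.36, 0.39 and 0.98 in pairs 1, 2 and 3. Cyp19a1, the aromatase that makes estradiol, was at 11.37, 9.03 and 11.23 with FSH and at 4.58, 5.18 and 4.39 in basal cells. FSH array 2 was the lowest and its basal partner the highest, yet the groups lay far apart, and the rise was 5.83 ± 0.95 (adjusted p = 0.000337), or 6.59 without FSH array 2. Its other probe sets rose by 4.33 ± 0.74 (adjusted p = 0.000608) and 3.25 ± 0.77 (0.0127). Cyp11a1, which cuts the cholesterol side chain, was at 12.79, 11.40 and 12.19 with FSH and at 7.64, 7.18 and 5.34 in basal cells. Basal array 3 was the low one here, and the rise of 5.41 ± 0.79 (adjusted p = 8.44e-05) was 4.72 without it.

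Hsd17b1, which converts estrone to estradiol, was at 11.39, 10.51 and 11.70 with FSH and at 8.28, 7.02 and 7.22 in basal cells, a rise of 3.70 ± 0.63 (adjusted p = 0.000578). Pair 2 differed by as much as 91.8% of the mean of the other pairs. Hsd3b1, which makes progesterone from pregnenolone, was at 13.25, 12.73 and 13.07 against 10.42, 9.83 and 8.56, a rise of 3.41 ± 0.42 (adjusted p = 8.99e-06). Fdx1, the electron donor of the side-chain enzyme, rose by 3.18 ± 0.64 (adjusted p = 0.00281), and Star, which brings cholesterol into mitochondria, by 2.73 ± 0.54 (adjusted p = 0.00278). Without FSH array 1, the highest array for both, their differences were 2.65 (adjusted p = 0.0557) and 2.06 (0.0651), and a second Star probe set rose by 2.48 ± 0.43 (0.000772). The oxidoreductase gene Por differed by 1.20 ± 0.37 (adjusted p = 0.0878, and 0.0274 with the block).

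**Figure D1:**
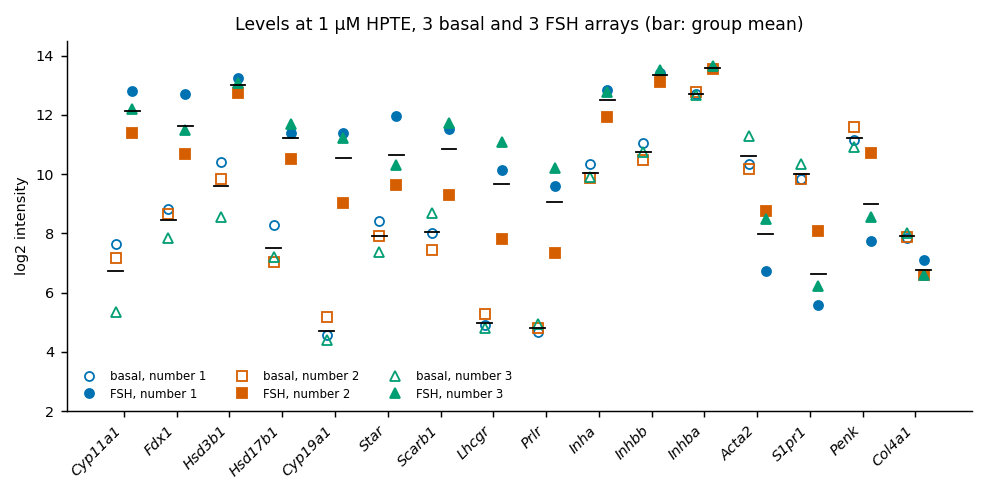
Log2 intensity of 16 genes in the 3 basal (open) and 3 FSH (filled) arrays at 1 µM HPTE, with the array number as shape and colour and the group mean as a bar. FSH array 2 was the lowest FSH array for Cyp19a1, Lhcgr and Prlr, at 9.03, 7.80 and 7.33, while the 3 FSH arrays of Inhbb stayed between 13.10 and 13.50.

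Cholesterol supply was compared next. Of 17 uptake and storage genes 1 rose (5.88%) and 2 fell (11.8%), beside 1.7% and 2.28% of all genes. With the block 3 rose and 4 fell, beside 4.47% and 5.98% of all genes. Scarb1, the receptor that takes up cholesterol from high-density lipoprotein, was at 11.51, 9.29 and 11.73 with FSH against 8.02, 7.44 and 8.67, a rise of 2.80 ± 0.51 (adjusted p = 0.00128), or 3.58 without FSH array 2. The lipoprotein receptor Vldlr fell by 1.46 ± 0.18 (adjusted p = 8.54e-06), and the lysosomal lipase Lipa by 0.85 ± 0.23 (adjusted p = 0.0314), the latter kept only without FSH array 2 (otherwise 0.0898 to 0.458). Of 20 cholesterol biosynthesis genes none passed, and 2 rose with the block (beside 4.47% of all genes). Those were Hsd17b7, with a difference of 1.34 ± 0.44 (adjusted p = 0.114, and 0.0337 with the block), and Dhcr7, with 0.75 ± 0.23 (0.0826 and 0.000667), the enzyme of the last step.

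Of 17 transcription factors and steroid receptors of steroidogenic cells 4 rose (23.5%, beside 1.7% of all genes) and none fell. Nr5a1, the orphan receptor SF-1 that binds steroid enzyme promoters, was at 9.24, 8.07 and 9.22 with FSH and 7.07, 6.82 and 7.01 in basal cells, with no overlap, a rise of 1.88 ± 0.23 (adjusted p = 6.8e-06). Its relative Nr5a2 (LRH-1) was at 10.82, 9.42 and 11.59 against 8.69, 7.79 and 9.26, a rise of 2.03 ± 0.53 (adjusted p = 0.0295). Without FSH array 2 it was 2.63, and the call was lost without FSH array 1 (0.171), FSH array 3 (0.27), basal array 1 (0.0779) or basal array 2 (0.191). Cebpa, a C/EBP factor, rose by 2.37 ± 0.47 (adjusted p = 0.00283), and the corepressor Nrip1, which is required for ovulation, by 1.00 ± 0.12 (adjusted p = 7.87e-06). Nrip1 was the only 1 of 20 estrogen-responsive genes to pass.

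Of 18 gonadotropin, prolactin and growth factor receptors 4 rose (22.2%) and 1 fell (5.56%), beside 1.7% and 2.28% of all genes. Lhcgr was at 10.15, 7.80 and 11.07 with FSH and at 4.90, 5.28 and 4.79 in basal cells. The FSH arrays were spread widely while the basal arrays lay close together, and the rise was 4.68 ± 1.00 (adjusted p = 0.00509). It was 5.62 without FSH array 2, and 3.99 with the call lost without FSH array 3 (adjusted p = 0.0616). Prlr was at 9.59, 7.33 and 10.21 against 4.66, 4.81 and 4.94, a rise of 4.24 ± 0.75 (adjusted p = 0.000922), or 5.10 without FSH array 2. The epidermal growth factor receptor Egfr rose by 2.63 ± 0.28 (adjusted p = 1.77e-06) and the lipoprotein and reelin receptor Lrp8 by 1.71 ± 0.20 (adjusted p = 5.82e-06). The growth hormone receptor Ghr fell by 1.40 ± 0.33 (adjusted p = 0.0115), but not without FSH array 1 (0.0813) or FSH array 3 (0.0617).

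Inhibin, activin and BMP genes split evenly, with 4 of 21 higher and 4 lower (19.0% each, beside 1.7% and 2.28% of all genes). Inha, the subunit common to inhibins, was at 12.83, 11.94 and 12.76 with FSH and at 10.34, 9.87 and 9.91 in basal cells, a rise of 2.47 ± 0.35 (adjusted p = 5.53e-05). Inhbb, the beta B subunit, was at 13.42, 13.10 and 13.50 against 11.06, 10.46 and 10.74, a rise of 2.58 ± 0.36 (adjusted p = 5.03e-05). Its pair 2 difference was 103% of the mean of the other pairs, unlike the called probe sets at large. Inhba, the beta A subunit, was at 13.56, 13.56 and 13.66 against 12.71, 12.76 and 12.68, a rise of 0.88 ± 0.12 (adjusted p = 3.23e-05).

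The probe sets of Inhba disagreed in size. The dimmer one was at 12.38, 10.96 and 11.19 with FSH and at 7.80, 7.31 and 7.43 in basal cells. It rose by 4.00 ± 0.73 (adjusted p = 0.00117), far more than the brighter one, and its pair differences were 4.58, 3.65 and 3.77. Fst, which encodes the activin-binding follistatin, rose by 1.16 ± 0.27 (adjusted p = 0.0119), but not without FSH array 1 (0.114), FSH array 3 (0.0723), basal array 2 (0.0583) or basal array 3 (0.0666). The falls were in the BMP antagonist Grem1, by 1.45 ± 0.37 (adjusted p = 0.0248), Bmp4, by 1.41 ± 0.35 (0.0189), the BMP mediator Smad1, by 0.49 ± 0.11 (0.00662), and Fstl1, by 0.46 ± 0.10 (0.00891). Of these 4 none was called without FSH array 1, 1 without FSH array 3 and 2 each without basal array 1 and basal array 3. Bmp4 was not called without basal array 2 (adjusted p = 0.0638). The block called 7 falls in the list, beside 5.98% of all genes.

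Ovulation genes were mostly short of the test: 1 of 20 rose, Areg (beside 1.7% of all genes), and 4 did with the block (beside 4.47%). Areg, an EGF receptor ligand that carries the ovulatory signal to the cumulus, was at 7.15, 5.27 and 6.52 with FSH against 5.21, 4.61 and 5.37. FSH array 2 lay below basal array 3, so the groups overlapped, and the rise of 1.25 ± 0.35 (adjusted p = 0.0442) was lost without any single array other than FSH array 2 (0.0642 to 0.523). The related ligand Ereg differed by 1.20 ± 0.38 (adjusted p = 0.0924, and 0.0199 with the block). Scg2, which encodes a secretory granule protein, was at 7.20, 5.85 and 7.93 against 4.39, 5.02 and 4.65, a rise of 2.31 ± 0.49 (adjusted p = 0.0046) that was lost without FSH array 3 (0.0678). Of the other neuroendocrine genes, the opioid precursor Penk was at 7.75, 10.71 and 8.54 with FSH against 11.14, 11.58 and 10.92, and fell by 2.21 ± 0.45 (adjusted p = 0.00336). FSH array 2 was close to the basal arrays, and the difference was -3.07 without it and -1.59, not called, without FSH array 1 (0.0779). The prohormone-processing enzyme Cpe fell by 2.14 ± 0.46 (adjusted p = 0.00512), differed by -2.91 without FSH array 2, and was not called without FSH array 1 (0.106) or 3 (0.0563).

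Further large rises were outside these pathways. Crabp2, which carries retinoic acid to its nuclear receptor, was at 12.11, 10.58 and 12.62 with FSH and at 6.86, 6.41 and 6.46 in basal cells, far from overlap, a rise of 5.20 ± 0.53 (adjusted p = 9.83e-07). It was 5.79 without FSH array 2, and no other gene of 18 in retinoid binding and metabolism passed. Hao2, a peroxisomal oxidase of hydroxy acids, was at 9.48, 7.70 and 9.29 against 5.28, 5.17 and 5.03, a rise of 3.67 ± 0.40 (adjusted p = 2.17e-06). Mmd2, of the progestin and adipoQ receptor family, rose by 3.61 ± 0.46 (adjusted p = 1.34e-05), the membrane receptor Havcr1 by 3.58 ± 0.55 (0.000156), the clock factor Npas2 by 3.49 ± 0.46 (2.04e-05) and the lysoplasmalogenase Tmem86a by 3.48 ± 0.48 (4.76e-05). Without FSH array 2, which was the lowest FSH array for all of these, Mmd2 differed by 4.38 and Havcr1 by 4.24. Of 26 oxidative stress and glutathione genes 2 rose, the glutathione transferases Gstm7, by 3.38 ± 0.39 (adjusted p = 4.96e-06), and Gstm1, by 1.69 ± 0.32 (0.00159); glutathione transferases of this class are close in sequence and can share probes. Ccnd2, the cyclin that FSH is known to induce, was the only one of 36 cell cycle genes to pass, with 10.24, 9.43 and 10.86 against 9.07, 8.46 and 8.72. Its rise of 1.43 ± 0.40 (adjusted p = 0.0471) was kept only without FSH array 2 (otherwise 0.0669 to 0.355).

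Contractile and actin genes were compared next. Of 23 measured, 9 fell (39.1%, beside 2.28% of all genes), none rose, and 19 fell with the block (beside 5.98%). All 23 had a difference below 0, with a median of -0.91, and in 20 of the 23 the smallest fall was in pair 2. Acta2 was at 6.73, 8.74 and 8.47 with FSH and at 10.35, 10.16 and 11.30 in basal cells, without overlap, and fell by 2.63 ± 0.55 (adjusted p = 0.00428). Without FSH array 1 it was -2.00 and not called (adjusted p = 0.0902). The tropomyosin Tpm2 fell by 1.86 ± 0.38 (adjusted p = 0.00405), the myosin light chain Myl9 by 1.63 ± 0.41 (0.0216), and the actinin Actn4, at 8.91, 10.41 and 9.37 against 10.70, 10.95 and 11.42, by 1.46 ± 0.24 (0.000478). The other 5 were Actg2, Lmod1, Pdlim7, Myh9 and Tpm4, with differences of -1.33 to -0.72; Tpm4 was also lost without FSH array 3 (0.084), and Actg2 was kept only without basal array 2 (otherwise 0.0534 to 0.345). Leaving out FSH array 1 left 3 of the 9 falls (with 1.12% of all probe sets called) and leaving out basal array 3 left 5 (1.86%). Without FSH array 2, where 4.8% of all probe sets were called, 13 fell. Tagln, the smooth muscle protein SM22, was at 9.67, 11.59 and 12.14 with FSH against 12.48, 12.22 and 13.47, with a difference of -1.59 ± 0.74 (adjusted p = 0.439, and 0.022 with the block).

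**Figure D2:**
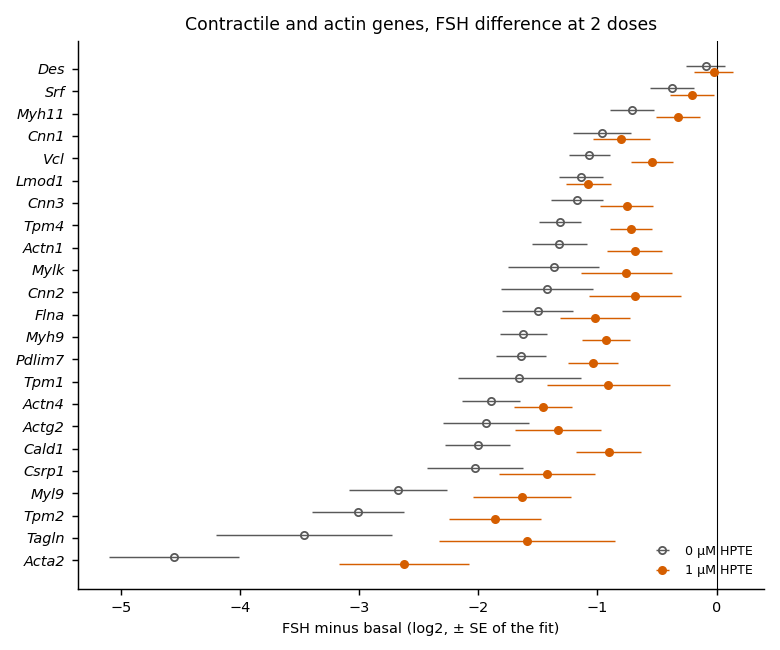
FSH minus basal difference (log2, ± SE of the fit, 3 arrays against 3) of 23 contractile and actin genes at 0 µM (open) and 1 µM (filled) HPTE. All points lie below 0, and each 1 µM point lies nearer to 0 than its 0 µM point, with medians of -0.91 and -1.50.

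Of 34 matrix genes 4 fell (11.8%, beside 2.28% of all genes) and 1 rose, and with the block 13 fell (beside 5.98%) and 1 rose. Col4a1, a basement membrane collagen, was at 7.10, 6.60 and 6.58 with FSH against 7.85, 7.87 and 7.99, and fell by 1.14 ± 0.23 (adjusted p = 0.0026). It went against the common pattern, since pair 2 differed by 117% of the mean of the other pairs. Its partner chain Col4a2 fell by 1.19 ± 0.21 (adjusted p = 0.000704) and the matrix glycoprotein Tnc by 1.40 ± 0.24 (0.000556). Ccn2, a connective tissue growth factor, fell by 0.73 ± 0.16 (0.00834), though not without FSH array 1 (0.17). Timp3, an inhibitor of metalloproteases, rose by 0.81 ± 0.19 (0.0105), though not without FSH array 1 (0.0857). The integrins Itgb1, by 0.59 ± 0.13 (0.00493), and Itga6, by 0.63 ± 0.17 (0.0268), were the 2 falls among 17 adhesion genes (11.8%, beside 2.28% of all genes). With the block 5 of the 17 fell and 1 rose, Kitlg, beside 5.98% and 4.47% of all genes. Itgb1 was not called without FSH array 1 (0.0709) or basal array 3 (0.078), and Itga6 not without FSH array 1, FSH array 3, basal array 1 or basal array 3 (0.0858 to 0.285). Fibronectin, Fn1, differed by -1.52 ± 0.46 (adjusted p = 0.0761, and 0.00229 with the block).

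S1pr1, a receptor for sphingosine 1-phosphate, had the largest fall, at 5.58, 8.07 and 6.23 with FSH against 9.84, 9.84 and 10.36 in basal cells. FSH array 2 was the highest FSH array, and the gene fell by 3.38 ± 0.40 (adjusted p = 4.96e-06), with a difference of -4.11 without that array. Ptgis, the prostacyclin synthase, was at 8.10, 8.62 and 8.02 against 10.86, 10.38 and 10.76, and fell by 2.42 ± 0.22 (adjusted p = 1.83e-07). C1qtnf7, a secreted C1q-related protein, fell by 2.48 ± 0.20 (4.85e-08) at 5.79, 6.75 and 6.39 against 8.94, 8.74 and 8.68, all 3 FSH arrays clear of the basal ones. The microfibril gene Mfap5 fell by 2.67 ± 0.50 (adjusted p = 0.00143), with -3.35 without basal array 3. Tcim fell by 2.44 ± 0.33 (2.9e-05), with -3.08 without FSH array 2. The other large falls, in Lmcd1, Sytl2, Tmem204, Serpinb2, Adamts12 and Ckmt1, were differences of -2.39 to -2.22 with adjusted p between 9.03e-05 and 0.000882. Of 24 ER stress and amino acid genes 2 fell, Vldlr and the arginine transporter Slc7a3 (1.44 ± 0.36, adjusted p = 0.0194), the latter not called without FSH array 1, FSH array 3, basal array 2 or basal array 3 (0.0602 to 0.144). Of 20 hypoxia and glycolysis genes 1 fell, Ndrg1, by 0.95 ± 0.16 (0.00043), and of 18 AhR and xenobiotic genes none passed. With the block 4 of the 20 hypoxia and glycolysis genes rose and 2 fell, beside 4.47% and 5.98% of all genes, so that rises outnumbered falls. The rises were the glucose transporter Slc2a1 (0.59, blocked adjusted p = 0.0083) and the glycolytic enzymes Ldha (0.72, 0.01), Pgk1 (0.50, 0.0183) and Tpi1 (0.51, 0.0214), and the added fall was the vasodilator peptide gene Adm (-1.19, 0.00207). The drug efflux pump Abcb1a (0.89, 0.0256) was then the 1 AhR and xenobiotic gene to rise. Of 20 PI3K-AKT and IGF genes 1 rose and 1 fell, and 1 and 3 with the block. Blocked counts of rises and falls were 5 and 0 of 17 steroidogenic factors, 5 and 1 of 18 receptors and 4 and 2 of 26 oxidative stress genes. They were 2 and 1 of 20 estrogen-responsive, 1 and 2 of 36 cell cycle, 1 and 3 of 18 neuroendocrine, and 0 and 3 of 24 ER stress genes. Over all genes the block called 4.47% higher and 5.98% lower, and the cell cycle counts were near those shares.

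**Figure D3:**
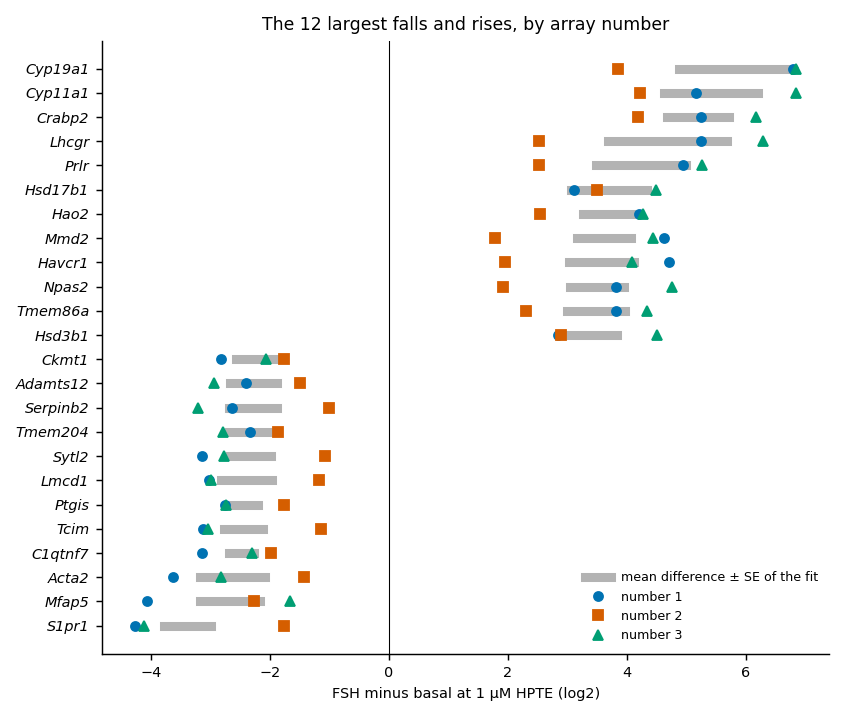
FSH minus basal difference (log2) at 1 µM HPTE in each numbered pair (symbols) for the genes of the 12 largest rises and 12 largest falls, with the mean ± SE of the fit as a grey bar. The square of pair 2 lies nearest to 0 for most genes, with exceptions such as Hsd17b1 and Mfap5.

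Members differed in how far pair 2 followed the others. Of the 77 called members 38 had a pair 2 difference under 50% of the mean of pairs 1 and 3, and 2 were above 100%, Inhbb and Col4a1. At the low end were Irs2 (7.88%), Tpm4 (8.4%), Pde4d (8.56%), Itga6 (10.4%) and Lipa (16%). Among the steroid enzymes Hsd17b1 was at 91.8%, Hsd3b1 at 78.9%, Cyp11a1 at 70.4%, Cyp19a1 at 56.5%, Fdx1 at 53.7% and Star at 53.5%. Inhba was at 87.1% and Inha at 77.5%, as high as genes of other lists such as Timp3 (90.8%), Ghr (82.5%) and Prkar2b (76.7%), while Prlr was at 49.4% and Lhcgr at 43.8%. These are single values without a test. Of the 77, 44 kept their call without each of the 6 arrays in turn, 31 lost it without FSH array 1, 20 without FSH array 3 and 1 without FSH array 2, and 12, 11 and 16 lost it without basal arrays 1, 2 and 3. The named probe set was the brightest of each gene; of 51 other probe sets of 31 called members, 48 had the same sign, 17 were called the same way and none the opposite way. The 3 of other sign, of Egfr, S1pr1 and Pde4b, differed by -0.01, 0.05 and -0.02. Several of the same sign were not called and smaller than the named probe set. Among them were those of Tmem86a (0.83 and 0.61), Sik1 (0.46), Nr5a1 (0.18), Tpm2 (-0.09) and Scarb1 (1.97).

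**Figure D4:**
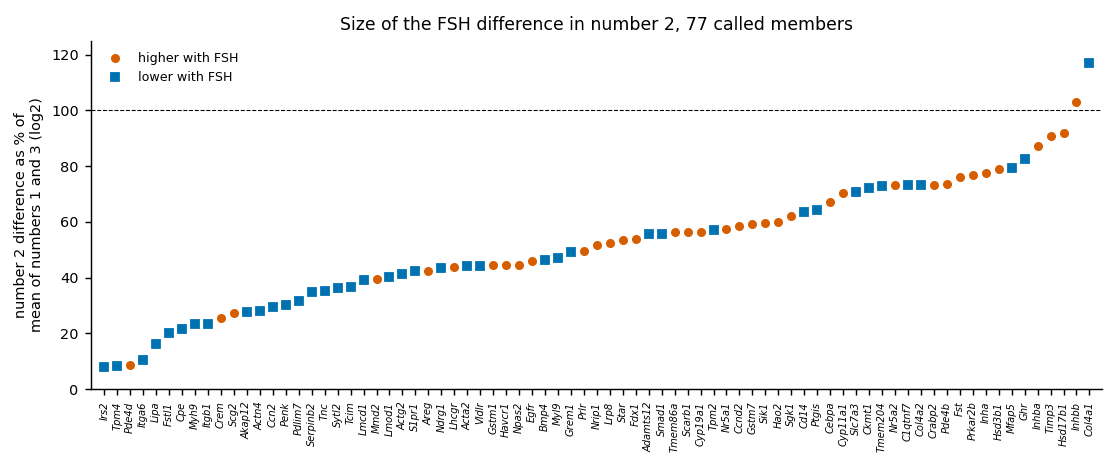
Difference in pair 2 as a percentage of the mean difference of pairs 1 and 3 (log2 scale) for the 77 called members in rising order, rises as circles and falls as squares. The dashed line marks 100%, which 2 members, Inhbb (103%) and Col4a1 (117%), exceed.

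The question whether 1 µM HPTE changed the response to FSH was put to the difference between the FSH responses at 1 and 0 µM. These use 12 arrays and share none. None of 31042 probe sets passed limma's test (0.0%), with 364 at an unadjusted p under 0.05. With the block 1 passed (0.00322%), Mreg, which was higher at 1 µM by 1.57 ± 0.24 (adjusted p = 0.0121). In the 0 µM groups the FSH and cAMP arrays numbered 2 stood apart from the others of their groups. Cyp19a1 was at 11.49, 7.48 and 11.46 in the FSH arrays of 0 µM and at 7.62, 11.01 and 6.46 in the cAMP arrays, and Lhcgr at 10.27, 5.94 and 11.50 and at 5.66, 10.04 and 5.80. For both genes each array numbered 2 lay nearer to the other group's arrays 1 and 3 than to those of its own group. Without both of them 1 probe set passed (0.00322%), Hpgd, the enzyme that inactivates prostaglandins, with -1.63 ± 0.26 at 1 µM against 0 µM (adjusted p = 0.0389). With the block as well 19 passed (0.0612%). Without FSH array 1 of 1 µM 3 passed (0.00966%), Tnfrsf11b (3.44 ± 0.40), Pamr1 (3.00 ± 0.39) and Cdc42ep2 (1.44 ± 0.22), all higher at 1 µM.

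Gene by gene the dose differences of the main markers were small beside their errors. That of Cyp19a1 was 0.39 ± 1.34, of Lhcgr 0.34 ± 1.41, of Cyp11a1 0.44 ± 1.11 and of Inhbb 0.06 ± 0.51. For the first 3 the standard error alone was over 1 unit of log2. Without the 0 µM FSH and cAMP arrays numbered 2 the sign turned for all 4: the dose difference was -0.94 ± 0.97 for Cyp19a1, -1.30 ± 0.85 for Lhcgr, -0.01 ± 1.16 for Cyp11a1 and -0.15 ± 0.55 for Inhbb, with unadjusted p of 0.137 to 0.993. No direction can be read for these genes between 0 and 1 µM. At 0 µM FSH called 2502 probe sets (8.06%). Of the 941 called at 1 µM, 901 were called the same way at 0 µM and none the opposite way, which is 95.7% of the calls at 1 µM and 36% of those at 0 µM, and 40 were not called at 0 µM. Without the 0 µM FSH and cAMP arrays numbered 2, 0 µM called 2516 probe sets (8.11%), 884 of the 941 the same way and none the opposite way. The fit without both arrays called 1188 probe sets at 1 µM (3.83%), among them 937 of the 941 and every called member; the rise of Cyp19a1 was then 5.83 ± 0.65 (limma's adjusted p = 2.96e-06) and that of Lhcgr 4.68 ± 0.56 (7.32e-06), with smaller errors. Of 531 probe sets higher with FSH by at least 2-fold at 0 µM, all had the same sign at 1 µM and 302 were called higher (56.9%). Their median difference was 1.49, 0.58 and 1.34 in pairs 1, 2 and 3 at 1 µM and 1.62, 1.17 and 1.72 at 0 µM. Of 746 lower ones 745 had the same sign and 360 were called lower (48.3%), with medians of -1.33, -0.44 and -1.17 at 1 µM and -1.47, -1.41 and -1.61 at 0 µM. Chosen without the 0 µM arrays numbered 2, 646 higher probe sets had medians of 1.44, 0.50 and 1.23 in the pairs of 1 µM, and 797 lower ones -1.27, -0.43 and -1.10. Since 0 µM chose these sets, their smaller size at 1 µM is no test.

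The contractile genes had a dose difference above 0, a smaller fall at 1 than at 0 µM, in 23 of 23 genes, with a median of 0.60, beside 44.5% of all genes with a difference above 0. The same 23 of 23 held without both number 2 arrays of 0 µM (median 0.51) and without FSH array 2 of 1 µM (0.37). It was 22 of 23 with numbers 1 and 2 alone. These fits reuse most of the same arrays, and all genes of the list are read on the same arrays. The counts therefore describe a direction and are no test. The block alters only the errors of these differences, since each group holds numbers 1 to 3, so its 23 of 23 is no test. None passed after adjustment. Unadjusted p was under 0.05 in 6 of 23 (204 of all 14217 genes), in 14 with the block (514 of all), in 12 with numbers 1 and 2 alone (266), in 3 without the number 2 arrays of 0 µM (371) and in 1 without FSH array 2 of 1 µM (83). Other lists leaned the same way. The dose difference was above 0 in 26 of 34 matrix genes (median 0.33) and 13 of 16 leukocyte markers (0.30). So it was in 12 of 14 theca and stroma markers (0.12, 1 of the 14 being Acta2). Without the number 2 arrays of 0 µM these were 23 matrix genes (0.17), 11 leukocyte (0.09) and 10 theca and stroma markers (0.11). Further lists did too, with 20 of 24 ER stress genes, 15 of 20 PI3K-AKT and IGF genes and 15 of 20 hypoxia genes. Likewise 25 of 36 cell cycle genes and 6 of 7 oocyte markers were above 0. Without those arrays the counts were 14, 12, 8, 25 and 5. Granulosa (4 of 13) and endothelial markers (3 of 13) were above 0 less often, beside 44.5% of all genes. Without the number 2 arrays of 0 µM these were 2 and 3 of 13, beside 47.3% of all genes. Without FSH array 2 of 1 µM they were 8 and 6 of 13, beside 50.2%, so the granulosa markers then lay mostly above 0. The part of stroma and leukocyte cells in the difference was not tested. Acta2 fell by 4.56 ± 0.55 at 0 µM and by 2.63 ± 0.55 at 1 µM, a difference of 1.93 ± 0.77 (unadjusted p = 0.0189, limma's adjusted p = 1), or 1.44 ± 0.76 without the number 2 arrays of 0 µM (unadjusted p = 0.0693). Cholesterol biosynthesis genes leaned the other way, with a dose difference below 0 in 19 of 20 (beside 55.5% of all genes) and a median of -0.27. It was below 0 in 20 of 20 without the number 2 arrays of 0 µM (beside 52.7%). Without FSH array 2 of 1 µM it was so in 14 of 20 (beside 49.8%), with a median of -0.10. In limma's fits unadjusted p was under 0.05 in 0, 2 and 0 of the 20 genes, in that order.

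At the higher doses few FSH differences passed. At 5 µM 1 probe set passed (0.00322%), and at 10 µM none passed with limma (0.0%), where 497 had an unadjusted p under 0.05. The difference of Cyp19a1 was 5.44 ± 0.95, 5.83 ± 0.95, 2.90 ± 0.95 and 0.57 ± 0.95 at 0, 1, 5 and 10 µM. That of Lhcgr was 4.34, 4.68, 2.22 and 0.20, and that of Scg2 3.05, 2.31, 0.09 and -0.11. The 0 µM values rest on FSH array 2 of that dose: without it and the cAMP array numbered 2 they were 6.77 ± 0.73 for Cyp19a1, 5.99 ± 0.63 for Lhcgr and 3.46 ± 0.53 for Scg2, so that for Cyp19a1 and Lhcgr 0 µM then had the larger value than 1 µM. Inhbb differed by 2.52, 2.58, 1.86 and 2.08, and Hsd17b1 by 4.14, 3.70, 2.49 and 2.99; their 0 µM values were 2.74 and 4.33 without those arrays. The median over the 531 probe sets higher at 0 µM was 0.36, 0.16 and 0.36 in pairs 1 to 3 at 5 µM, and over the 746 lower ones -0.31, -0.02 and -0.16.

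**Figure D5:**
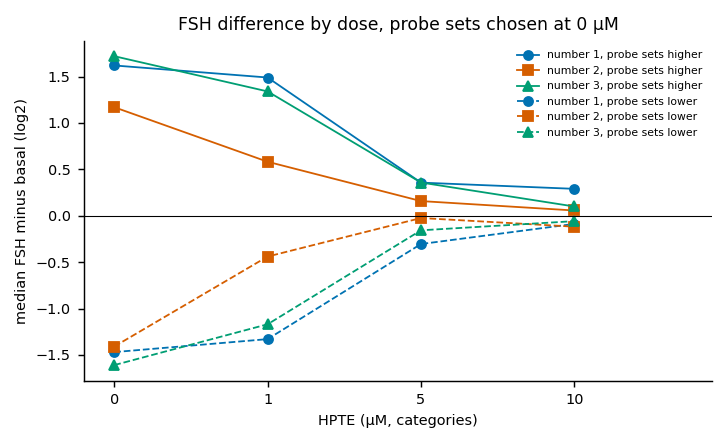
Median FSH minus basal difference (log2) in each numbered pair at 0, 1, 5 and 10 µM HPTE (shown as categories) over 531 probe sets higher (solid) and 746 lower (dashed) with FSH by at least 2-fold at 0 µM. At 1 µM pairs 1 and 3 stay at 1.49 and 1.34 in the higher set while pair 2 is at 0.58.

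Cells given cAMP at 1 µM HPTE share the 3 basal arrays with the FSH comparison, so the values stand side by side and no overlap is drawn. With cAMP 2704 probe sets passed (8.71%). Cyp19a1 differed by 3.11 ± 0.95 (adjusted p = 0.0365) with cAMP and 5.83 with FSH, and Lhcgr by 1.16 ± 1.00 (adjusted p = 0.684) and 4.68. Crem differed by 0.34 ± 0.35 with cAMP (adjusted p = 0.756) and 1.34 with FSH, and Areg by 0.37 ± 0.35 (0.728) and 1.25. Inhbb differed by 2.73 and 2.58, Crabp2 by 4.95 and 5.20, and Acta2 by -5.25 and -2.63, with cAMP and FSH respectively. Of the 23 contractile genes 20 fell with cAMP (beside 5.98% of all genes) and 9 with FSH (beside 2.28%). The difference between both stimuli was not tested.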

How the data were processed

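The deposited table holds 1 intensity per probe set and array on a linear scale; the submitters' processing notes name RMA, and the design text names ArrayAssist, with versions not given in the sources used here. Per the labels, 40 ng of total RNA was amplified with NuGEN Ovation and put on Affymetrix Rat Genome 230 2.0 arrays. Arrays have no count depth, so their number limits precision; median intensity per array was 65.8 to 73.7, and arrays of a group correlated at 0.95 to 0.994. The log2 of each of 31099 deposited intensities was taken, 57 control probe sets were set aside, and 31042 were tested without a filter.

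Names came from the platform's table, updated through GRCr8 gene identifiers. Of the tested probe sets 20826 had 1 symbol, 436 several and 9780 none, and the brightest probe set was used for each of 14217 genes. R 4.3.3 and limma 3.58.1 (lmFit, eBayes) fitted 12 group means over 36 arrays with 24 residual degrees of freedom. Benjamini-Hochberg ran over all 31042 probe sets in each comparison, two-sided. Differences are log2 ± SE of the fit with n = 3 against 3 arrays, and every adjusted p is limma's. The fit was checked on simulated data.

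Same-numbered FSH and basal arrays deviated together from their group means (correlations of 0.568, 0.677 and 0.837; other pairs -0.664 to -0.055), so the numbers pair the samples. Blocked counts are given for each list whose count the block changed. Every list count is to be read beside the share of all genes. That share was 1.7% higher and 2.28% lower, and 4.47% and 5.98% with the block.

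The comparison, 27 lists (495 of 544 genes measured) and tests were chosen with earlier results of these data known. Named genes are the 12 largest rises and falls among called genes without overlap, and list members; Mreg, Hpgd, Tnfrsf11b, Pamr1 and Cdc42ep2 were named after their values were seen. Other settings were normalization, a level filter, an offset, array weights and leaving out arrays.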

Additional observations from a re-analysis of the deposited data

How the results depend on the processing

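The count of 941 probe sets called for FSH at 1 µM HPTE was 2489 with the replicate block, 2385 with array quality weights, 264 from numbers 1 and 2 alone and 3 from the 6 compared arrays, where residual degrees of freedom are few. It was 1818 from those 6 arrays with the block, a setting chosen after seeing the data. Leaving out 1 array gave 347 to 1490. Quantile normalization gave 1008, median centring 901, the filter above the median level 1002 of 15521, log2 of the value + 16 gave 956, and leaving out the number 2 arrays of 0 µM FSH and cAMP (chosen after seeing the data) gave 1188. The count of 0 for the dose difference was 1 with the replicate block, 1 without both number 2 arrays of 0 µM, and 19 without them with the block (chosen after seeing the data). Leaving out 1 array gave 0 to 3. The 24 genes with the largest changes kept direction in all 384 combinations of gene and setting. They were chosen without overlap between FSH and basal arrays, so leaving out or weighting arrays could not turn their direction. The block and the fits of 6 arrays leave the difference as it was, so the kept direction is no test. In 32 combinations the call was lost. Of these, 24 were in the fit of 6 arrays alone and 6 from numbers 1 and 2 alone. The others were Acta2 without FSH array 1 and Lhcgr without FSH array 3. The cause of these changes was not tested.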

Other observations

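Without the FSH and cAMP arrays numbered 2 of 0 µM and with the array number as a block, 19 probe sets differed between the FSH responses at 1 and 0 µM in limma's fit, 14 with a higher and 5 with a lower response at 1 µM. The setting and the names were chosen after their values were seen. Ptges, the prostaglandin E synthase, was higher by 1.70 ± 0.28 (adjusted p = 0.0221) and Hpgd, which inactivates prostaglandins, differed by -1.65 ± 0.23 (adjusted p = 0.00456). Aspn, a small leucine-rich matrix protein, was higher by 2.52 ± 0.46 (adjusted p = 0.0245), and Snap25, a protein of vesicle fusion, differed by -2.20 ± 0.41 (adjusted p = 0.0245).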
